A study of Mus musculus with 12 samples.

Results

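Heat shock proteins and their DnaJ partners were examined in mouse lung tumours that lacked or kept Dnmt3a, a de novo DNA methyltransferase. The members were all probes whose gene name on the array starts with Hsp or Dnaj, without Hspg2, which encodes the matrix proteoglycan perlecan. This gave 125 of 41174 probes, for 63 genes. All but Hspbap1 and Tmem208 belong to the small Hsp, Hsp60, Hsp70, Hsp90 and DnaJ families. Two-colour oligonucleotide arrays had compared tumours deleted for Dnmt3a (KO) with tumours wild type at Dnmt3a (WT), and each of the 12 arrays carried KO RNA in 1 dye and WT RNA in the other. All mice were of the strain C57/129 and carried the K-ras LSL-G12D allele, which gives mutant K-ras only after Cre has cut out a stop cassette. KO mice were in addition homozygous for a conditional Dnmt3a allele. Both groups received adenoviral Cre through the airway at 6 to 12 weeks of age, so both kinds of tumour were driven by K-ras G12D, and no cell type promoter limited Cre in the labels.

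The labels give an age for each animal without its unit. The ages form 4 combinations, treated here as pairs. Pair A had KO at 47.7 and WT at 42.6 (4 arrays), and pair B had KO at 27 and WT at 41.3 (4 arrays). Pair C had KO at 27 and WT at 47.6 (2 arrays), and pair D had KO at 29.1 and WT at 37.3 (2 arrays). All animals were male except the WT of pair C, which was female. KO animals were older than WT in pair A and younger in pairs B, C and D. Genotype and age cannot be told apart within a pair. The study's design text calls the arrays 12 biological replicates, but arrays of a pair may share animals. The KO of pairs B and C had the same age and sex, so these pairs may share KO animals too. The p-values then measure the spread between arrays, part of which may be technical. Pairs A and B had 2 arrays of each dye orientation, whereas pair C had KO RNA only in Cy5 and pair D only in Cy3.

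Molecular chaperones bind unfolded stretches of other proteins and keep them from clumping while they fold. Hsp70 proteins do this in cycles of ATP hydrolysis that DnaJ proteins (also called Hsp40) start and nucleotide exchange factors reset, and Hsp90 acts later on kinases and steroid receptors. Hsp60 and its lid Hsp10 fold proteins inside mitochondria, and small Hsps hold denatured proteins without using ATP. The transcription factor Hsf1 raises a subset of these genes within minutes of heat, ischaemia or other protein damage. Hspa1a is the classic inducible member and Hspa8 its constitutively expressed relative.

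Dnmt3a itself was lower in KO RNA on its 3 kept probes, with log2 ratios of KO over WT of -0.55, -0.25 and -0.21 (limma, adjusted p 0.0026, 0.016 and 0.022). Pair A was on slide 1 and pair B on slide 2, so differences between these pairs cannot be told apart from slide. Slide 3, which held pairs C and D, was dimmer, with 59.0% to 72.2% of probes well above background against 81.6% to 89.6% on the other slides. The alveolar marker genes were measured in both RNAs, with a median log2 ratio of -0.17. Of these, 1 of 7, Lamp3, was called lower in KO (limma, adjusted p under 0.05). All 6 endothelial marker genes had ratios below 0, with a median of -0.74, and 5 were called lower. Of all genes, 3.49% were called lower. Arrays of bulk tissue cannot tell fewer cells of a type from less RNA per cell.

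Ratios below are log2 ratios of normalized intensity, KO over WT, so a negative ratio means less signal from KO RNA. A gene was called where limma's adjusted p (Benjamini-Hochberg over all 35561 kept probes) was under 0.05, and a gene with several probes was represented by its brightest kept probe. Of the member probes, 119 were kept, for 62 genes. Dnajb7 was too dim in both RNAs to be kept, and 5 other dim probes were left out, for Dnaja4, Hspa12a, Dnajc1 and Dnajb4.

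As a group the members were not called more often than other genes. Hspa8 was called higher in KO, and Hspa1a and Hspa12b were called lower. These 3 of 62 genes are 4.84%, against 6.53% of all 20596 genes (3.03% higher and 3.49% lower). The count at an unadjusted p under 0.05 was 16 of 62, or 25.8%, against 22.8% of all genes. The median ratio of the members was -0.043, against -0.0056 for all genes, and 72.6% of them (45 of 62) were below 0, against 52.5% of all genes. Only Hspa1a and Hspb8 exceeded 0.5 in size, 2 of 62 genes against 5.91% of all genes. No member's representative probe had the same sign on all 12 arrays, against 2% of all genes.

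**Figure D1:**
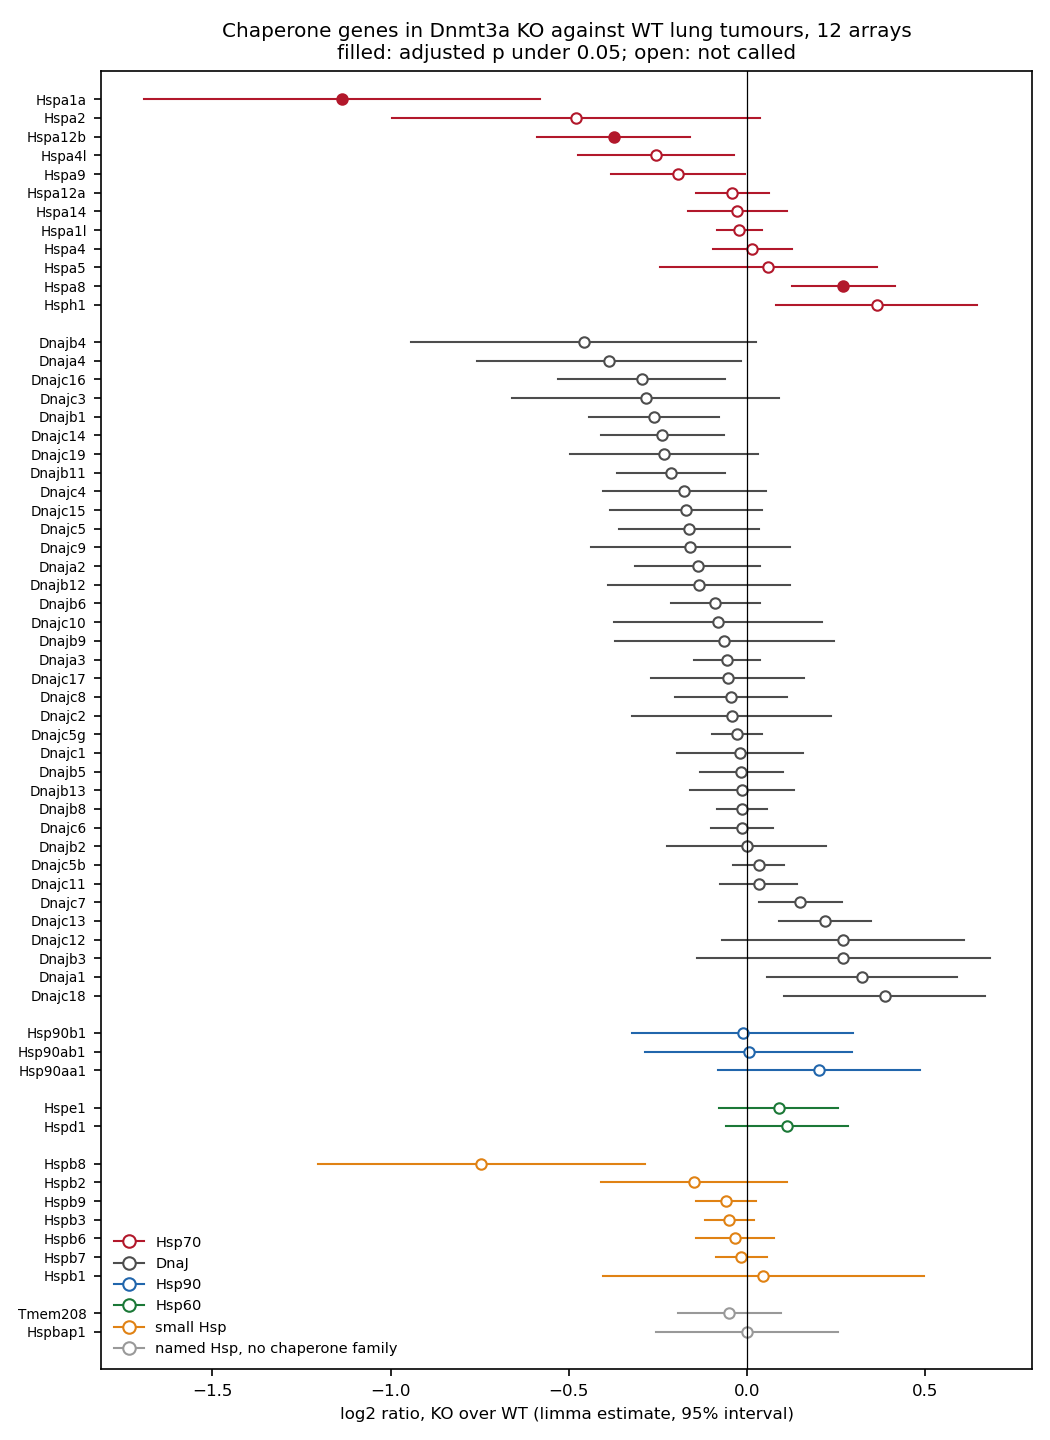
Log2 ratio, KO over WT, of the 62 kept genes, as limma estimates with 95% intervals on the x axis, grouped and coloured by family; filled points have an adjusted p under 0.05. Hspa1a at -1.14 lies farthest from 0, Hspa12b and Hspa8 are the other called genes, and most DnaJ genes lie slightly below 0 with intervals that cross it.

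Hspa1a, the stress-inducible cytosolic Hsp70, had the largest ratio of any member. Its ratio on single arrays ran from -2.48 to 0.27 with a median of -1.18. It was below 0 on 10 of 12 arrays, and the other two, both of pair B, stood at 0.27 and 0.0071. The estimate was -1.14 ± 0.25 (SE, n = 12 arrays), a 2.20-fold lower level in KO, with a 95% interval of -1.69 to -0.58 and an adjusted p of 0.027. The normalized log2 level of this probe was 10.8 to 13.2 in WT RNA (median 12.2) and 8.74 to 11.8 in KO RNA (median 11.0). Levels of both RNAs overlapped across arrays, and levels from single dyes are open to dye bias.

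Arrays of the same pair differed widely for Hspa1a. In pair A the 4 arrays read -0.31, -0.59, -1.45 and -2.06, and in pair B 0.27, 0.0071, -1.14 and -2.14. Pair C read -1.37 and -1.22, and pair D read -0.95 and -2.48. The estimates by pair, from a fit with a dye term, were -1.10, -0.75, -1.57 and -1.44. The test for a difference between pairs gave an adjusted p of 0.86. Pairs C and D had KO RNA in only Cy5 or only Cy3, so their estimates carry a dye correction and differ from their array means. Every pair's estimate was below 0, while arrays within pairs A, B and D differed by more than the pair estimates did. The call was lost without replicate 3 (adjusted p 0.058), replicate 7 (0.0502), replicate 9 (0.0505) or replicate 12 (0.058), and without pair A (0.12), pair C (0.098) or pair D (0.070). The estimate stayed between -1.31 and -1.02 in each of these and with each other array or pair left out. Within slides 1, 2 and 3 it was -1.10, -0.75 and -1.51 with no call (adjusted p 0.30, 0.59 and 0.15). Slides 1 and 2 are pairs A and B, so their estimates repeat those by pair. With median centring in place of loess the Hspa1a estimate was -1.06 (adjusted p 0.11).

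**Figure D2:**
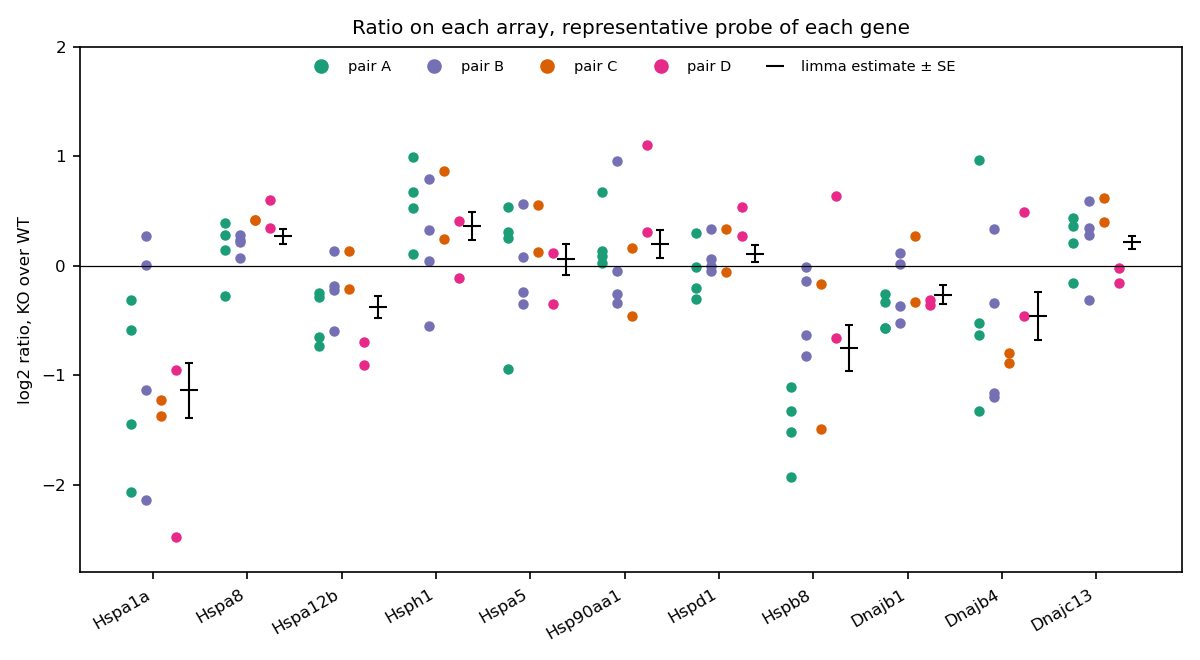
Log2 ratio, KO over WT, on each of the 12 arrays for the representative probe of 11 genes, coloured by pair, with the limma estimate and its SE in black. The points of Hspa1a spread from -2.48 to 0.27, and those of Hspa8 lie above 0 on 11 of 12 arrays. The lowest point of Hspb8, at -1.93, belongs to pair A.

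Hspa1a had 4 kept probes. The representative probe and a second one lie at chr17:33066911-33066970 and chr17:33066941-33067000 on mm7, the build of the array's annotation, and gave -1.14 and -1.16 (adjusted p 0.025 for the second). They overlap and are not independent. For the other two probes the array's annotation also lists the transcript of Hspa1b, the neighbouring gene, so their signal may come from either gene. Of these, the brighter gave -0.86 ± 0.22 and was called (adjusted p 0.041), and a dim one, well above background on 8 arrays in KO and 9 in WT, gave -0.27 ± 0.09 (adjusted p 0.11). All 4 were below 0 on 10 of 12 arrays.

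Heat shock factors bind inverted repeats of the unit GAA, the heat shock element, and the promoter sequence of Hspa1a is shown with those of 3 members that hold stress elements but were not called. Each is the 250 bases before a RefSeq start of the gene (GRCm38.p6), 5′ to 3′ on the gene's strand. Hsph1 and Hspd1 have 2 starts each, and a start with the most paired units was chosen. The window of the other Hspd1 start (chr1:55088194-55088493) held 0 paired units in 300 bases. The windows are chr17:34972157-34972406 (minus strand) for Hspa1a, chr5:149636316-149636565 (minus) for Hsph1, chr1:55087933-55088182 (minus) for Hspd1 and chr2:34771840-34772089 (plus) for Hspa5. Capitals mark paired units (GAANNTTC or TTCNNGAA) in the first 3 and in Hspa5 the ER stress element (CCAAT, any 9 bases, then CCACG).
Hspa1a: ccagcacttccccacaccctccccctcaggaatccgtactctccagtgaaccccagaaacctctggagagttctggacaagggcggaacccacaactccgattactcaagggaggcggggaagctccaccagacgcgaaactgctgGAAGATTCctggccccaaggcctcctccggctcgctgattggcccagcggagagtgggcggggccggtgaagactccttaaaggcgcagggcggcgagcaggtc
Hsph1: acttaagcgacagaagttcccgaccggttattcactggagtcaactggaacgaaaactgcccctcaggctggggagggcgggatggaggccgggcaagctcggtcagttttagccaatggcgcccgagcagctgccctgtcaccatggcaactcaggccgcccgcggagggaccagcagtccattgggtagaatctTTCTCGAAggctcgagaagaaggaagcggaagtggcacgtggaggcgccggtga
Hspd1: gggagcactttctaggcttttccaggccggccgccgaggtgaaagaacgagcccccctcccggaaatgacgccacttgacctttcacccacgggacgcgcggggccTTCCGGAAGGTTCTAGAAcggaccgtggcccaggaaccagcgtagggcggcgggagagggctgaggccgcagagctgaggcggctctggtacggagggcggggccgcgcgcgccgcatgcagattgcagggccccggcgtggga
Hspa5: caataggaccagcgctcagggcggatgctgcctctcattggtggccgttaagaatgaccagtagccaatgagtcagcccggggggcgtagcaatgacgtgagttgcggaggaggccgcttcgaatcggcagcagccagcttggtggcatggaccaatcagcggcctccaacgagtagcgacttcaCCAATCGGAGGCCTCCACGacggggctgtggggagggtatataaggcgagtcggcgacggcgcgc

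The Hspa1a window holds 1 pair of units, which begins 104 bases before the start, and the Hsph1 window 1, which begins 54 bases before it. In Hspd1, which shares this stretch with its divergent neighbour Hspe1, 3 overlapping pairs begin 144, 139 and 134 bases before the start. Promoter windows of 300 bases, reaching 50 bases past the start, were available for 51 of the 63 genes. A gene with several starts was counted if any of its windows matched. The form GAANNTTC, searched on both strands, was in 12 of them (23.5%), against 9.04% of 27025 genes. TTCNNGAA, which can overlap it, was in 6 (11.8%), against 9.6%. The form of 3 units, GAANNTTC followed by any 2 bases and GAA, was in 4, Dnajb6, Hspd1, Hspe1 and Hsph1 (7.84%), against 0.662% of genes, and in Hsph1 it lies past the start. A match in such a window is a match of letters, not a measured binding site.

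Members with these letters did not share a direction, and 9 of 14 were below 0. The 14 kept genes with a pair of units in either form had a median ratio of -0.042 and ranged from -1.14 to 0.36, with Hspa1a the single one called. The 36 kept genes with a window but without a pair had a median of -0.050, with 31 of 36 below 0. They ranged from -0.48 to 0.27, with Hspa12b the single one called. Dnajb1, itself heat-inducible, is among these 36. The 12 genes without a window are in neither group, and these include Hspa8, which was called higher, Hsp90aa1 and Hsp90ab1. The 4 genes with 3 units ranged from -0.089 to 0.36. CG dinucleotides, the bases that Dnmt3a methylates, had a median of 25 in 300 bases of member windows, against 8 over 27025 genes. Those genes were not limited to genes measured on the arrays, and each gene counted by its window with the most. The called genes Hspa1a and Hspa12b had 15 and 19, below the member median. Methylation was not measured here.

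Hspa8, the constitutive cytosolic Hsp70 (Hsc70), moved the other way. Its ratio on single arrays ran from -0.28 to 0.60 with a median of 0.28. It was above 0 on 11 of 12 arrays, and the exception was 1 array of pair A. The estimate was 0.27 ± 0.07, a 1.21-fold higher level in KO (95% interval 0.13 to 0.41, adjusted p 0.037). By pair the estimates were 0.14, 0.20, 0.31 and 0.59 from A to D, and the test between pairs gave an adjusted p of 0.46. A second probe gave 0.31 ± 0.14 and was not called (adjusted p 0.24). The Hspa8 call was fragile. It was lost without any 1 of replicates 1, 2, 3, 6, 7, 8, 9, 10 and 12 (adjusted p up to 0.081) and without any 1 of the 4 pairs (0.0501 to 0.13). The array's annotation places both Hspa8 probes on chromosome 5, away from the gene's own locus, and cross-hybridization was not tested. Within an array, the ratio of Hspa1a lay below that of Hspa8 on 11 of 12 arrays, and the difference ran from -2.82 to 0.058.

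Hspa12b, a distant Hsp70 relative known for its expression in endothelium, was called lower. Its ratios ran from -0.91 to 0.14 with a median of -0.27 and were below 0 on 10 of 12 arrays. The estimate was -0.37 ± 0.10, 1.30-fold lower in KO (95% interval -0.59 to -0.16, adjusted p 0.047), from -0.48, -0.22, -0.028 and -0.81 in pairs A to D. Endothelial markers had ratios below 0 as well, also in pair C, where Hspa12b stood near 0. The median of the 6 markers was below 0 on all 12 arrays, from -1.37 to -0.49, and was -0.75, -0.61, -0.68 and -1.04 in pairs A to D. Their summed normalized intensity was 6629 to 9325 in KO RNA and 11439 to 21134 in WT RNA, with no marker missing from either. The part of these cells in the Hspa12b ratio was not tested. Its call held without replicate 7 or 10 and was lost with any other single array (adjusted p up to 0.10) or any 1 pair left out (0.062 to 0.15). Hspa12a, the related gene with broader expression, stood at -0.041 ± 0.047.

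**Figure D3:**
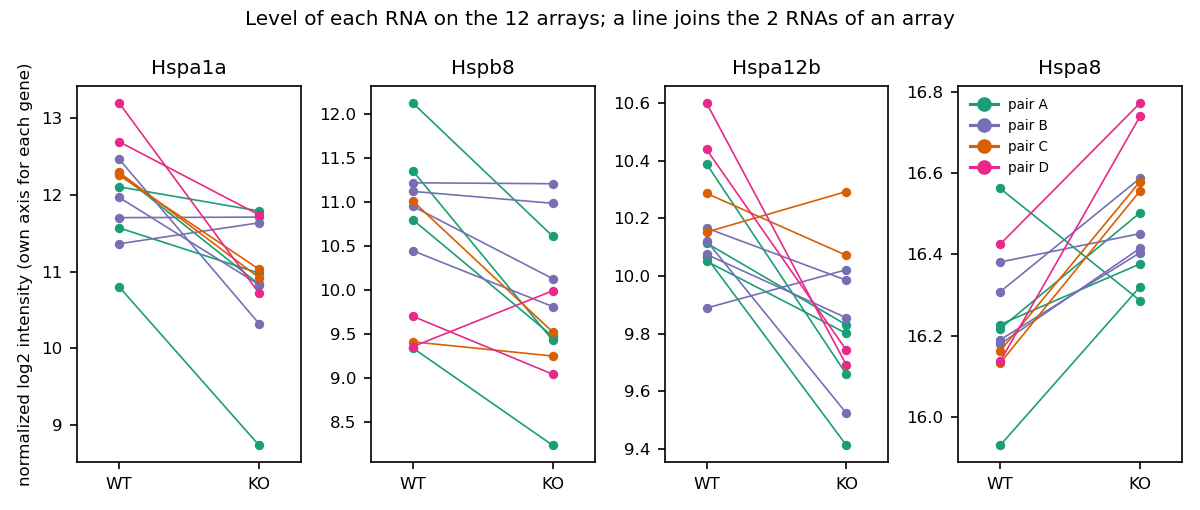
Normalized log2 intensity of Hspa1a, Hspb8, Hspa12b and Hspa8 in WT and KO RNA, with a line joining both RNAs of each of the 12 arrays, coloured by pair, on a separate y axis for each gene. Lines of Hspa1a and Hspa12b fall on 10 arrays each, lines of Hspb8 on 11, and lines of Hspa8 rise on 11.

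The other Hsp70 genes were not called on their representative probes. Hsph1 (Hsp105), which resets Hsp70 by nucleotide exchange, ranged from -0.54 to 1.00 on single arrays and was above 0 on 10 of 12 (estimate 0.36 ± 0.13, adjusted p 0.12). Hspa4l, another exchange factor of that kind, had 4 probes between -0.31 and -0.26, each below 0 on at least 9 arrays (adjusted p 0.085 to 0.16). The probes of its close relative Hspa4 disagreed. The representative one gave 0.014 ± 0.051 and 2 others -0.034 and 0.041, whereas the last gave 0.36 ± 0.09, was above 0 on 10 of 12 arrays and was called (adjusted p 0.047). Without replicate 2, 3, 4, 5, 6, 7, 8, 9, 10 or 12 this probe was no longer called (adjusted p up to 0.087). It and the probe at 0.041 had no matching RefSeq transcript and kept the array's name for the gene.

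Hspa2, best known from testis, gave -0.48 ± 0.24 (adjusted p 0.27) and differed in sign between pairs, from 0.25 in pair A to -0.95 in pair B (adjusted p between pairs 0.51). Hspa5 (BiP), the Hsp70 of the endoplasmic reticulum (ER), ran from -0.94 to 0.56 on single arrays. Its estimate was 0.059 ± 0.14, with a 95% interval of -0.24 to 0.36. The ER stress element marked in its promoter was in 3 member windows (5.88%), those of Hspa5, Hsp90b1 and Dnajc3, against 0.137% of genes, and these genes stood at 0.059, -0.013 and -0.29. Mitochondrial Hspa9 (mortalin) gave -0.19 ± 0.09 (adjusted p 0.22). Hspa14 and the testis gene Hspa1l gave -0.027 and -0.022.

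None of the 36 DnaJ genes was called on its representative probe. An unadjusted p under 0.05 was found for 9 (25%), against 22.8% of all genes. The median ratio of the DnaJ genes was -0.056, with a range from -0.46 to 0.39. Of these, 28 of 36 (77.8%) were below 0, against 52.5% of all genes. Dnajb1, the main cytosolic Hsp40 partner of Hsp70 and itself heat-inducible, was called on 1 of its 2 probes. The representative probe ran from -0.57 to 0.27, with 9 of 12 arrays below 0 (estimate -0.26 ± 0.08, adjusted p 0.090). Its second probe gave -0.32 ± 0.07, was also below 0 on 9 arrays and was called (adjusted p 0.019). That call held with each single array left out (adjusted p 0.011 to 0.042), and was lost without pair A (0.15) or pair B (0.073). This gene was singled out after its values were seen.

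Dnajb4, a closely related cytosolic DnaJ, had the largest ratio of the family, at -0.46 ± 0.22. Its arrays ran from -1.33 to 0.97, 9 of 12 were below 0, and it was not called (adjusted p 0.26). A second probe gave -0.33 ± 0.19. Dnajc13 (RME-8), which works on endosomes with Hspa8, had the smallest adjusted p of the family's representative probes, at 0.053, with an estimate of 0.22 ± 0.06. It ran from -0.31 to 0.62 and was above 0 on 8 of 12 arrays. It crossed the threshold without replicate 6 (0.031), with backgrounds as deposited (0.046), with no background subtraction (0.049), with the series matrix ratios (0.049), with the mean of each gene's probes (0.045), with the brightest probe of each gene alone (0.0498), with 12 arrays as independent (0.026), with the slide as block (0.032) and with array weights (0.025). With other single arrays left out the adjusted p reached 0.10. With 1 pair left out it was 0.085 to 0.19, and within slides 0.30 to 0.53. The estimate lay between 0.19 and 0.29 in all alternatives run. The farnesylated cytosolic co-chaperones were spread around 0, with Dnaja1 at 0.32 ± 0.12, Dnaja2 at -0.14 ± 0.08 and Dnaja4 at -0.39 ± 0.17. The other probes of Dnaja1 gave 0.075 and 0.041.

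Among DnaJ proteins of the ER, Dnajb11, a BiP co-chaperone, gave -0.21 ± 0.07 and was below 0 on 10 of 12 arrays (adjusted p 0.094). Dnajc3, which also restrains the eIF2α kinase PERK, gave between -0.30 and -0.22 on 4 probes (adjusted p of the representative one 0.38). Dnajb9 and Dnajc10 stood at -0.064 and -0.082, but their probes differed in sign. The other kept probes gave 0.016 and 0.065 for Dnajb9, and -0.045, 0.11 and 0.023 for Dnajc10. In mitochondria, Dnajc19, a part of the protein import motor, had probes of both signs. Its representative probe gave -0.23 ± 0.12, below 0 on 9 arrays, and the others gave 0.49 ± 0.14 and 0.33 ± 0.12, above 0 on 11 and 9 arrays. None of these probes was called (adjusted p 0.30, 0.064 and 0.13). The rise on the last 2 lay mainly in pair A, at 1.14 and 0.86, with the other pairs between -0.031 and 0.27 (adjusted p between pairs 0.067 and 0.071). These 2 probes had no matching RefSeq transcript and kept the array's name for the gene. The annotation places them at chr3:33865420-33865479 and chr3:33866090-33866149, and the representative one at chr3:33887556-33887974. Whether they measure the same transcript was not tested. Both probes of Dnajc18 gave 0.39 (adjusted p 0.11 and 0.080) and were above 0 on 10 arrays each.

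**Figure D4:**
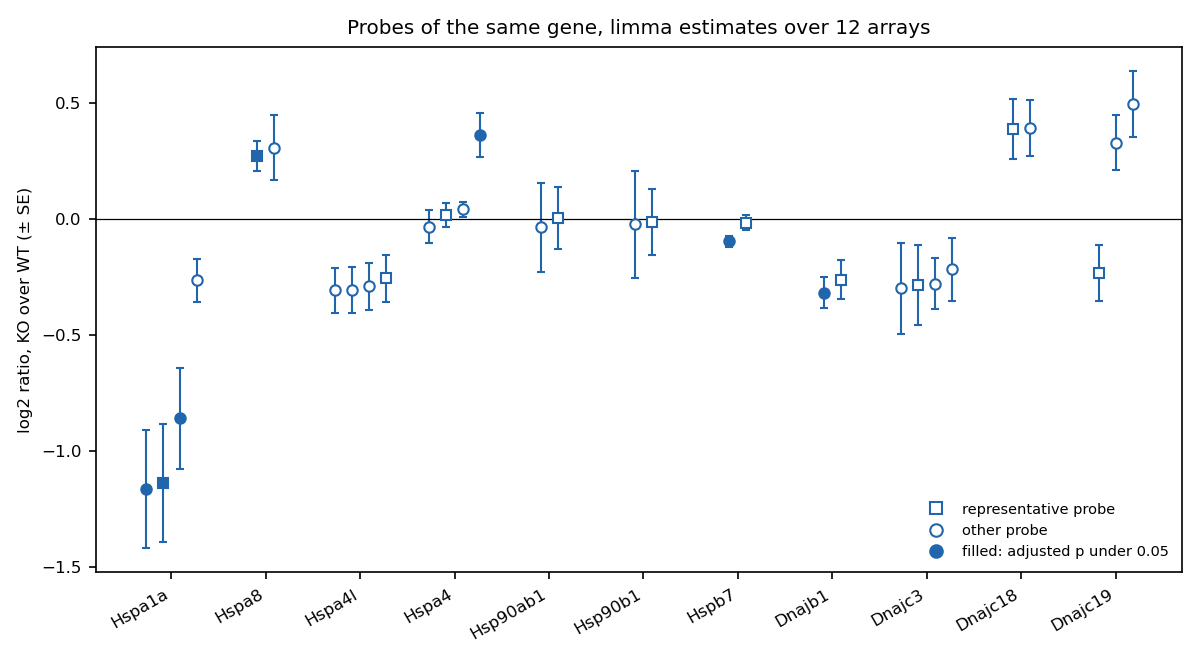
Limma estimates of the log2 ratio, KO over WT, with SE, for each kept probe of 11 genes; squares are representative probes and filled symbols have an adjusted p under 0.05. Probes of Hspa4l, Dnajc3 and Dnajc18 lie close together, whereas 1 Hspa4 probe and 1 Hspa1a probe stand apart from the others of their gene and Dnajc19 has probes on both sides of 0.

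Counted over probes, 8 of 119 were called, 2 higher and 6 lower, in 6 genes (of all kept probes 5.71% were called, 2.83% higher and 2.88% lower). Of 37 genes with more than 1 kept probe, 22 had all their probes on the same side of 0. The smallest called change was that of a heart and muscle gene, Hspb7. A probe printed in 10 spots on each array gave -0.097 ± 0.024 and was below 0 on all 12 arrays, from -0.19 to -0.019 (adjusted p 0.041). The SD between its spots within an array was 0.044 to 0.12. That call held without replicate 5 or 9 and was lost with any other single array left out (adjusted p up to 0.083). The other Hspb7 probe, which represented the gene, gave -0.016 ± 0.032. Heart and skeletal muscle markers, 7 genes, held no call and had a median of 0.018. Their median on single arrays ran from -0.90 to 0.99, so muscle signal differed widely between arrays. Its part in the Hspb7 ratio was not tested.

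Hspb8, a small Hsp that works with Bag3 in clearing damaged proteins, had the second largest ratio of all members. On single arrays it ran from -1.93 to 0.64 with a median of -0.74, and 11 of 12 arrays were below 0. The exception was 1 array of pair D. The estimate was -0.75 ± 0.21 (95% interval -1.20 to -0.29), a 1.68-fold lower level in KO that was not called (adjusted p 0.059). By pair it was -1.47, -0.40, -0.69 and -0.15, and the difference between pairs was not called (p 0.052, adjusted p 0.40). Without replicate 5, 10 or 11 the gene was called (adjusted p 0.030, 0.045 and 0.026). With other single arrays left out the adjusted p reached 0.12. With 1 pair left out it was 0.053 to 0.40, with estimates from -0.93 to -0.41, and within slides it was 0.10 to 0.61. Bag3 itself gave -0.15 ± 0.10 (adjusted p 0.43).

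The remaining small Hsps showed no call on their representative probes. Hspb1 (Hsp27), a widely expressed heat-inducible member, spread from -1.44 to 1.79 over arrays, and its estimate was 0.045 ± 0.21 (95% interval -0.41 to 0.49). Hspb2, Hspb3, Hspb6 and Hspb9, known from muscle or testis, lay between -0.15 and -0.034.

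None of the 3 Hsp90 genes or the 2 Hsp60 genes was called. Hsp90aa1, the inducible cytosolic Hsp90, ran from -0.46 to 1.10 and was above 0 on 8 of 12 arrays (estimate 0.20 ± 0.13, adjusted p 0.42). Hsp90ab1, its constitutive relative, gave 0.0041 ± 0.13, and the ER form Hsp90b1 (Grp94) gave -0.013 ± 0.14. The mitochondrial chaperonin Hspd1 (Hsp60) gave 0.11 ± 0.08, with a range from -0.30 to 0.54 and 6 arrays on either side of 0. Its lid Hspe1 (Hsp10) gave 0.088 ± 0.077. The 95% intervals of these probes reached no higher than 0.28 and 0.26, and a second Hspd1 probe gave 0.14 ± 0.12 with an upper bound of 0.40. Hspbap1 and Tmem208, the latter listed on the array under an Hsp name, are not chaperones of these families and gave -0.00039 and -0.050.

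No member was called for a difference between pairs, and 3 of 62 had an unadjusted p under 0.05 there, against 13% of all genes (0.386% called). Among representative probes the smallest p was that of Dnajc15, a mitochondrial DnaJ (p 0.0043, adjusted p 0.18), with -0.39, 0.019, -0.61 and 0.32 in pairs A to D. Next came Tmem208, Dnaja2, Hspb8, Dnajb6 and Hspa12a, with adjusted p of 0.31 to 0.45. The median ratio over the members lay between -0.064 and -0.024 in each of the 4 pairs and between -0.086 and 0.017 on single arrays.

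Other genes of protein folding, 69 in 4 lists, held 8 calls, or 11.6% against 6.53% of all genes. Of 27 heat shock regulators and co-chaperones, 2 rose and 2 fell. Cdc37, which loads kinases onto Hsp90, rose by 0.43 ± 0.07 (adjusted p 0.0051), and Chordc1, another Hsp90 co-chaperone, by 0.27 ± 0.05 on 12 of 12 arrays (0.012). Ppid, the Hsp90-bound cyclophilin 40, gave -0.71 ± 0.17 (0.033), and Hsf4, a heat shock factor best known from the lens, gave -0.50 ± 0.07 with all 12 arrays below 0 (0.0033). Hsf1 gave -0.056 ± 0.072 (adjusted p 0.73).

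The cytosolic chaperonin TRiC, which folds actin and tubulin, and its helper prefoldin had 2 of 13 genes called, both higher, and a median of 0.15. Cct4 rose by 0.60 ± 0.08 (adjusted p 0.0030) and Cct6a by 0.47 ± 0.09 (0.011), each above 0 on 12 of 12 arrays. Of 21 genes of ER folding, Pdia6, a disulphide isomerase, rose by 0.65 ± 0.15 (0.029), and Herpud1, which acts in ER-associated degradation, gave -0.64 ± 0.12 (0.011). The median of that list was 0.0058. None of 8 mitochondrial folding genes was called (1 gene, Yme1l1, was nearest with an adjusted p of 0.064).

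Immediate early genes, which rise with tissue handling and share stress inputs with Hspa1a, did not move one way. Egr1 was higher (0.82 ± 0.19, adjusted p 0.028), Zfp36 lower (-0.43 ± 0.07, adjusted p 0.0075), and the other 6 of 8 were not called, with Fos at -0.71 ± 0.19 (adjusted p 0.054). The median of the 8 was -0.079. The labels do not give the time from death to freezing, and its part in the Hspa1a ratio was not tested. The smooth muscle list had 1 of 6 genes called lower (Des, -0.43), and the leukocyte and ciliated cell lists had none. These lists still differed between arrays. Their medians on single arrays ran from -0.84 to 0.21 (smooth muscle), -0.89 to 0.18 (leukocyte) and -1.83 to 0.38 (ciliated).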

How the data were processed

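Total RNA of flash-frozen tumours was labelled in Cy3 or Cy5, per the labels' protocols. Spot intensities, their local backgrounds and flags were deposited as Agilent Feature Extraction 10.1.1.1 output, per the file headers. They are not normalized. The series matrix holds log2 ratios that the authors deposited and was used as an alternative.

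Mean signals were corrected with normexp (offset 50) in limma 3.58.1 under R 4.3.3. Outlying local backgrounds took the median of the array and dye. Loess followed within arrays, with control and outlier-flagged spots at weight 0, and ratios were turned to KO over WT. Probes were kept where well above background for KO or WT RNA on at least 6 of 12 arrays. The fit had a dye term and the pair as a random block (correlation 0.079), and adjustment ran over all kept probes. Pair estimates and the pair test (limma's F test) came from a fit with a coefficient per pair and a dye term. Pairs C and D had KO RNA in only Cy5 or only Cy3, so their estimates carry a dye correction drawn from pairs A and B. No member spot was saturated.

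Probes were named through RefSeq accessions where these matched (22951 of 41174), and otherwise kept the file's name (11758) or had none (6465). The members and lists were chosen with earlier results of these data known. Named were Hspa1a, called members, each family's largest ratio and smallest p, genes whose probes differ in sign with a call, and the 6 smallest p between pairs. Of the other lists, the called genes were named. Dnajb1, Hspb7 and the other members named were chosen after their values were seen. Alternatives changed the background, normalization, filter, probe choice, block, weights, variance model, threshold and arrays included.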

Additional observations from a re-analysis of the deposited data

How the results depend on the processing

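The member ratios kept their direction for Hspa1a, Hspa8, Hspa12b, Hspb8, Dnajb1 and Dnajc13 under every alternative run, but the calls did not hold. The count of members called higher (1) and lower (2) was 0 and 0 with median centring in place of loess, with 1 averaged value per pair, without pair A, pair C or pair D, within slide 1, 2 or 3, and at a threshold of 0.01. It was 1 and 1 with backgrounds as deposited (Dnajc13 and Hspa1a, without Hspa8); 2 higher and 1 lower with no background subtraction (Hspa8, Dnajc13 and Hspa1a); 2 higher, Hspa8 and Dnajc13, with the series matrix ratios, with the brightest probe of each gene alone, with the slide as block and with array weights; 2 higher and 4 lower with 12 arrays as independent; 0 higher and 1 lower without pair B and with an intensity trend (Hspa1a) and with pairs A and B alone (Dnajc14; added after the data were seen); and 2 higher and 5 lower at a threshold of 0.10. With single arrays left out both counts ran from 0 to 3. The median member ratio was -0.0073 with median centring, and otherwise between -0.058 and -0.020. The 8 calls among the other folding genes were 0 with pair means and within each slide, 4 with pairs A and B alone, 14 with array weights, 13 at 0.10 and 3 at 0.01. Over all kept probes 2032 were called, from 0 within slides 1 and 3 to 3269 with 12 arrays as independent, 486 with median centring, 578 without pair A and 51 with pair means. The share of calls that were higher was 49.6%, against 61.6% with backgrounds as deposited.

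The sign held for 27 of 62 representative probes under every alternative that refits the ratios and changed under 1 or more for the other 35, none of them called; in 43 the estimate of 1 or more pairs had the opposite sign. Of the 21 probes followed one by one, those that changed sign were Hspd1 within slide 1 (-0.051), Dnajc15 within slide 2 (0.019), Dnaja2 within slide 2 (0.091), Hspa4 without replicate 8 (-0.016, and up to 0.046 without other arrays), without pair B (-0.032), within slide 1 (-0.019) and slide 3 (-0.045), Tmem208 with median centring (0.061), without pair A (0.011) and within slide 2 (0.039), Dnajb6 with median centring (0.0090), with the mean of its probes (0.039) and within slide 1 (0.085), and Hspa12a with the mean of its probes (0.013), without pair D (0.0032) and within slide 2 (0.0032). The cause was not tested in any of these. Signal over local background, a median of 3.49 to 10.0 over arrays and dyes, limits the dim probes.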
